A study of Mus musculus with 10 samples.

Results

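Imprinted genes were examined in mouse embryonic stem (ES) cells that lacked the DNA dioxygenases Tet1, Tet2 or both. A list of 51 genes known to be imprinted was matched to the array by the gene name that the scanner files give each probe. Of these, 50 had at least 1 probe, 87 probes in all among the 39429 on the array, and 46 had a probe past the filter on dim signal and were tested among 20663 genes. Of the 46, 26 were classed as paternally expressed and 19 as maternally expressed, and Gnas, whose transcripts differ in the copy they use, was kept apart. The classes were assigned from earlier knowledge. They need not hold in every tissue or transcript, and they were not measured in these cells. Rian had no probe under that name. Rtl1, Zim1, Rasgrf1 and Slc22a3 had probes that were not well above background on all arrays of any group, and they were not tested.

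An imprinted gene is transcribed from only one of the parental chromosomes, chosen by a DNA methylation mark that was laid down in the egg or the sperm. The mark lies at a control region that often governs a cluster of genes of both kinds, and it must be copied at each cell division by the maintenance methyltransferase Dnmt1 with its partner Uhrf1 and be guarded by factors such as the zinc-finger protein Zfp57. Tet enzymes oxidise 5-methylcytosine, a step towards its removal, and imprints of ES cells are known to drift in culture. The array measures the RNA of both parental copies together, so it holds no measure of which copy was transcribed.

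RNA was hybridised on 10 two-colour arrays, and levels are normalized log2 intensities of the brightest probe of each gene. The wild-type (WT) lines were WT#6 and WT#92 (male) and WT#7 and WT#94 (female). The lines without Tet1 and Tet2 (double knockout, DKO) were DKO#51 and DKO#61 (male) and DKO#60 and DKO#59 (female). The Tet1 knockout (T1KO) lines T1KO#99 and T1KO#65 and the Tet2 knockout (T2KO) line T2KO#16 were male, so Tet2 loss alone rests on 1 line. All had a mixed C57/BL/6 background, per the labels, and had grown with LIF on irradiated feeder cells, which were separated on gelatin before RNA was taken. The sources used here do not give age, culture passage or which parts of Tet1 and Tet2 were deleted. Each DKO line was paired on the array with a WT line of its sex, with DKO in Cy5 and WT in Cy3 (4 pairs, 6 arrays). T2KO#16 in Cy5 was paired with T1KO#65 in Cy3 (2 arrays), and T1KO#99 in Cy3 shared its 2 arrays with a sample that was not used here because the labels give its genotype as false. Dyes were not swapped, so dye and genotype cannot be told apart in DKO over WT, and sex lay together with the slide.

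Between 55.2% and 69.0% of the 43020 gene spots were well above background in each channel of each array, and the number of arrays limits the precision. Repeat arrays of the same lines differed in the log2 ratio of the 46 genes by a median of 0.0413 to 0.0602. Tet1 and Tet2 were low in the lines whose labels name them as deleted: Tet1 at 10.52 to 11.08 in the DKO and T1KO lines against 12.78 to 13.13 in the others, and Tet2 at 9.40 to 10.12 in the DKO and T2KO lines against 11.42 to 12.06. All 22 pluripotency genes listed were tested, and their median level was 13.88 to 14.47 in the 11 lines. Feeder fibroblast markers were also measured: 31 of 35 were tested, among them Col1a2 at 13.5 to 14.7 in the WT lines, and their summed level on the log2 scale was 17.94 to 18.74 in the WT lines, 17.97 to 18.43 in the DKO lines, 18.36 to 18.44 in the T1KO lines and 17.93 in T2KO#16. Fewer cells of a type and less RNA per cell cannot be told apart in such bulk samples.

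Noncoding RNAs are the main products of several imprinted clusters, and the 60-base probes that report them are given here because several of the wide spreads and of the small p-values below belong to them. They are written 5′ to 3′ from the scanner files, with their position in the mm9 build of the array's design. Whether a probe lies in an exon was not examined, since no annotation of that build was used here.
Meg3, tested probe, chr12:110809678-110809737, plus strand: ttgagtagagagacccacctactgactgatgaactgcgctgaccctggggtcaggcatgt
Mirg, tested probe, chr12:110987569-110987628, plus strand: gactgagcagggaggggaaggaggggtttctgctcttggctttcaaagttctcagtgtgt
Mirg, other probe, chr12:110979653-110979712, plus strand: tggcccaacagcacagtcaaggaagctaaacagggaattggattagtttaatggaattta
Kcnq1ot1, tested probe, chr7:150440140-150440199, minus strand: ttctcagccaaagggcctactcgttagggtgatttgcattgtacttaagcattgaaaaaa
H19, tested probe, chr7:149761492-149761551, minus strand: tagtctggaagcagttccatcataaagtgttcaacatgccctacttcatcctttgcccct
Airn, tested probe, chr17:12944784-12944843, plus strand: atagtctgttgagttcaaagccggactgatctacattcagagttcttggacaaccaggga

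Zfp57 is known to bind the hexamer TGCCGC when its CpG is methylated. The 250 bases before the RefSeq starts (GRCm38.p6) were searched for TGCCGC and its reverse complement GCGGCA, and the windows of Mest and Meg3, each described in every line below, are shown as examples that hold it. Of 32851 such windows of all genes, 8.68% held the hexamer, and of 61 windows of 41 members 9 did (14.8%), the median number of CpGs being 10 in the windows of members and 6 in all windows. The 8 members with a match were Zdbf2, Mcts2, Calcr, Mest, Copg2, Zim1, Plagl1 and Meg3. The overlapping starts of Mest are counted singly. Capitals mark the hexamer, and a match is a description of the letters and not a shown binding site.
Mest, chr6:30737800-30738049, plus strand: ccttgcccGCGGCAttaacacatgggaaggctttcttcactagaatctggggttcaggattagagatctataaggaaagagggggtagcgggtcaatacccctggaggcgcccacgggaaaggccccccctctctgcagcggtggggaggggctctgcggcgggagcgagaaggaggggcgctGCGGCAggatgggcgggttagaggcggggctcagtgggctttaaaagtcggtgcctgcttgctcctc
Meg3, chr12:109540746-109540995, plus strand: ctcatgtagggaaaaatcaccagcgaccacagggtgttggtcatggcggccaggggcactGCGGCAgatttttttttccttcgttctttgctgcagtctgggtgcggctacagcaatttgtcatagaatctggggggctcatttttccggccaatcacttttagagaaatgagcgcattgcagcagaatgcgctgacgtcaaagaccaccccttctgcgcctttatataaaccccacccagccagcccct

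In DKO over WT none of the 46 members, each read by its brightest probe, passed limma's test over all genes. Blcap and Th, imprinted genes outside the list of 51, did pass it and are described below. Of the 46, 0 were called at a Benjamini-Hochberg adjusted p under 0.05, where 4.58% of all genes were called, and 9 (19.6%) reached an unadjusted p under 0.05, beside 26.2% of all genes. The 9 were 3 with higher values (Ascl2, Cdkn1c and Zrsr1) and 6 with lower values (Nnat, Trappc9, Mirg, Meg3, Kcnq1ot1 and Ppp1r9a). The median log2 ratio was 0.01 over the 26 paternally expressed genes and 0.05 over the 19 maternally expressed ones, beside 0.02 over all genes tested. Ratios ran from -0.99 (Nnat) to 0.70 (Plagl1). In all 4 pairs 7 members were negative (15.2%, against 17.1% of all genes) and 5 were positive (10.9%, against 20.2%). In levels, 2 members lay lower in every DKO line than in every WT line (4.35%, against 5.93%), namely Impact and Trappc9, and 2 lay higher (4.35%, against 7.54%), namely Ascl2 and Igf2r. Over the 46 members together these shares were all below those of all genes, and so were those of the 26 paternally expressed genes. Of the 19 maternally expressed genes, however, 5 were negative in all 4 pairs (26.3%), a larger share than of all genes. Both members that lay higher in every DKO line were among these 19, again a larger share. So was the share with an unadjusted limma p under 0.05, at 31.6%. The counts are small, and these differences were not tested.

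**Figure D1:**
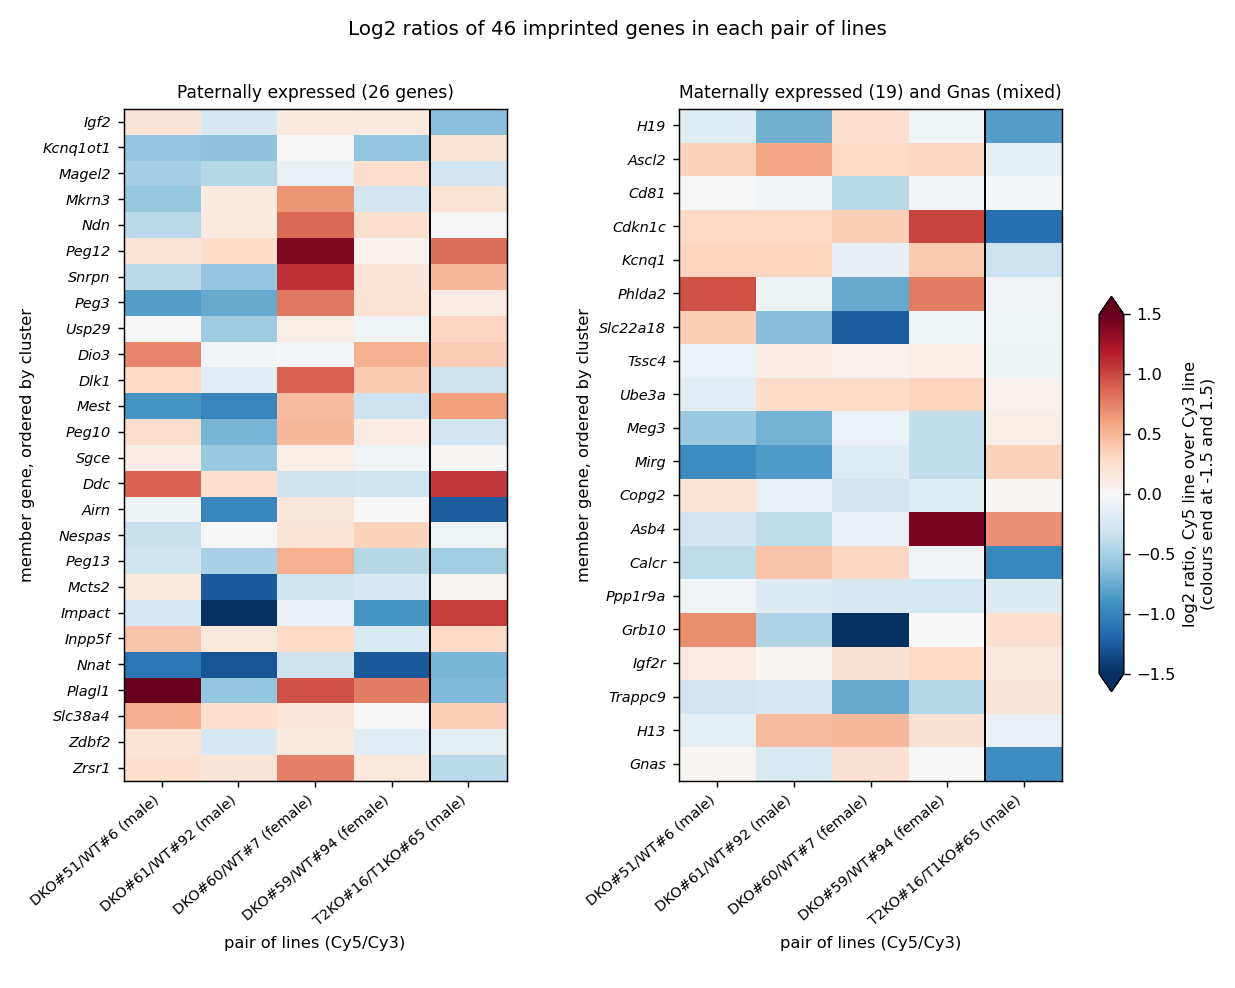
Log2 ratios (colour) of the 46 imprinted genes tested, in rows by expressed copy and cluster, in the 5 pairs of lines (columns; DKO over WT to the left of the line, T2KO over T1KO to its right). Nnat, Meg3 and Mirg are blue in all 4 DKO pairs, whereas Peg3, Mest and Snrpn are blue in the 2 male pairs and red in the pair DKO#60/WT#7.

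Throughout the following, levels are listed in the order WT#6, WT#92, WT#7 and WT#94 for the WT lines and DKO#51, DKO#61, DKO#60 and DKO#59 for the DKO lines, and ratios in the order of these pairs. Nnat, a paternally expressed proteolipid gene of the nervous system that sits inside an intron of Blcap on chromosome 2, had the smallest p. It stood at 8.91, 9.28, 8.60 and 10.02 in the WT lines, at 7.83, 7.99, 8.29 and 8.76 in the DKO lines, at 9.19 and 9.61 in T1KO#99 and T1KO#65 and at 8.91 in T2KO#16. The 3 lowest values were those of DKO lines, while DKO#59 lay above WT#7. Its log2 ratios were -1.08, -1.29, -0.31 and -1.26, with a mean of -0.99 (SE 0.182, limma adjusted p = 0.052), a 1.98-fold lower level. The other Nnat probe stood at -1.46, -1.71, -0.59 and -1.85, with a mean of -1.40. When each of the 25865 probes past the filter was tested on its own, an alternative added after the data were seen, that probe was called (SE 0.218, limma adjusted p = 0.0417), and 4% of all probes were called. Nnat was 0.30 higher in the T1KO than in the male WT lines (SE 0.458, limma adjusted p = 0.804), and its T2KO over T1KO ratio was -0.70, or -0.99 by the other probe. Both probes thus read lower in Cy5 in all 5 pairs, and the dye was not tested apart from the genotype.

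Blcap, the imprinted host gene of Nnat, moved the other way and passed the test, at 0.58 (SE 0.0559, limma adjusted p = 0.0213). It stood at 11.34, 11.09, 11.50 and 11.40 in the WT lines and at 11.91, 11.63, 12.15 and 11.99 in the DKO lines, which did not overlap. The T1KO lines, in Cy3, stood at 11.18 and 11.49 and T2KO#16, in Cy5, at 11.98, so that all 5 lines read in Cy5 lay above all 6 read in Cy3. For Blcap the effect of the dye cannot be told apart from that of the genotype.

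The Dlk1-Meg3 cluster on chromosome 12 carries maternally expressed noncoding RNAs, of which Meg3 and Mirg were measured, and the paternally expressed genes Dlk1, a Notch-like ligand, Rtl1 and Dio3, a deiodinase of thyroid hormone. Both noncoding RNAs had lower values in the DKO line of every pair. Meg3, known to be silenced in many cultured ES and iPS lines, stood at 14.51, 14.85, 13.45 and 14.36 in the WT lines, at 13.96, 14.14, 13.36 and 13.99 in the DKO lines, at 14.84 and 13.95 in T1KO#99 and T1KO#65 and at 14.04 in T2KO#16. WT#7 lay below 3 of the 4 DKO lines, so the groups overlapped. The ratios were -0.55, -0.71, -0.09 and -0.37, with a mean of -0.43 (SE 0.114, limma adjusted p = 0.0989). With each array centred on its median in place of loess, which raised the median ratio of all genes to 0.22, Meg3 stood at 0.05, or -0.16 relative to that median.

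Mirg, the host transcript of a microRNA array downstream of Meg3, stood at 12.22, 12.17, 10.97 and 11.85 in the WT lines, at 11.27, 11.32, 10.79 and 11.48 in the DKO lines, at 12.20 and 11.16 in T1KO#99 and T1KO#65 and at 11.50 in T2KO#16. DKO#60, WT#7, T1KO#65 and DKO#51 were the 4 lowest lines both for Mirg and for Meg3. The Mirg ratios were -0.95, -0.85, -0.19 and -0.37, with a mean of -0.59 (SE 0.15, limma adjusted p = 0.0934), and its other probe stood at -0.87. Dlk1 stood at 11.16, 11.29, 10.74 and 11.33 in the WT lines, at 11.46, 11.13, 11.62 and 11.72 in the DKO lines, at 11.77 and 11.36 in the T1KO lines and at 11.06 in T2KO#16. Its ratios of 0.30, -0.16, 0.88 and 0.40 were positive in 3 of 4 pairs, and the WT and DKO lines overlapped. Dio3 was at 0.73, -0.05, -0.02 and 0.54.

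The Kcnq1 cluster on chromosome 7 is controlled by the paternally expressed antisense RNA Kcnq1ot1, which is known to silence its neighbours in cis. Kcnq1ot1 stood at 6.85, 7.25, 7.04 and 7.07 in the WT lines, at 6.28, 6.65, 7.05 and 6.49 in the DKO lines, at 7.00 and 7.27 in the T1KO lines and at 7.47 in T2KO#16. It was well above background on all 6 WT arrays but on 2 of the 6 DKO arrays, so the low DKO levels are imprecise. Its ratios were -0.58, -0.60, 0.01 and -0.58, with a mean of -0.44 (SE 0.125, limma adjusted p = 0.113), while the scanner software's own ratios gave -2.03 and the authors' deposited value table gave -0.16.

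Cdkn1c, a maternally expressed inhibitor of cyclin-dependent kinases, had higher values in every DKO line than in its paired WT line. It stood at 10.81, 11.21, 11.45 and 11.06 in the WT lines, at 11.10, 11.51, 11.82 and 12.07 in the DKO lines, at 11.61 and 11.66 in the T1KO lines and at 10.53 in T2KO#16. The T1KO lines thus lay above all 4 WT lines and T2KO#16 below them. The ratios were 0.30, 0.30, 0.37 and 1.01, with a mean of 0.49 (SE 0.141, limma adjusted p = 0.114), which was 0.32 without the pair DKO#59/WT#94. Ascl2, a basic helix-loop-helix factor of the trophoblast, stood at 10.99, 10.72, 11.03 and 10.85 in the WT lines, at 11.34, 11.30, 11.32 and 11.16 in the DKO lines, at 11.13 and 10.94 in the T1KO lines and at 10.80 in T2KO#16. All 4 DKO lines lay above all 4 WT lines, with ratios of 0.35, 0.58, 0.28 and 0.31 and a mean of 0.38 (SE 0.074, limma adjusted p = 0.0576), a 1.30-fold higher level.

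Phlda2, a maternally expressed growth inhibitor of the placenta, varied from pair to pair. It stood at 10.79, 10.73, 11.15 and 10.45 in the WT lines, at 11.75, 10.66, 10.39 and 11.22 in the DKO lines, at 11.03 in both T1KO lines and at 10.98 in T2KO#16, and its ratios were 0.96, -0.07, -0.76 and 0.77. Slc22a18, its neighbour, was at 0.36, -0.64, -1.24 and -0.06, with its lowest value in the same pair. Kcnq1, a potassium channel gene, was well above background on all 6 DKO arrays but on 1 of 6 WT arrays, and it passed the filter through the DKO lines alone. Tssc4 and Cd81 of the same cluster stood between -0.42 and 0.12 in the 4 pairs.

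Igf2 and H19 share enhancers at the other end of this part of chromosome 7. H19, a maternally expressed noncoding RNA, stood at 12.34, 14.07, 13.10 and 13.56 in the WT lines, at 12.16, 13.35, 13.35 and 13.50 in the DKO lines, at 13.75 and 13.32 in the T1KO lines and at 12.50 in T2KO#16. WT#6, DKO#51 and T2KO#16 were the low lines, and the WT lines alone spanned 1.73 on the log2 scale. The mean DKO over WT ratio was -0.18 (SD 0.403, n = 4). Igf2, the paternally expressed growth factor, was dim, at 6.98, 7.73, 7.22 and 7.26 in the WT lines, at 7.17, 7.50, 7.35 and 7.41 in the DKO lines, at 7.72 and 7.63 in the T1KO lines and at 7.00 in T2KO#16, and its mean ratio was 0.06.

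Igf2r, the maternally expressed receptor that clears Igf2, had a narrow range, and its paternally expressed antisense RNA Airn a wide one. Igf2r stood at 10.83, 10.90, 10.86 and 10.79 in the WT lines, at 10.95, 10.93, 11.08 and 11.08 in the DKO lines, at 10.82 and 11.08 in the T1KO lines and at 11.21 in T2KO#16. The DKO lines lay above all WT lines by a mean ratio of 0.16 (SE 0.0689, limma adjusted p = 0.21). Airn stood at 7.20, 8.35, 7.18 and 7.87 in the WT lines, at 7.12, 7.36, 7.35 and 7.87 in the DKO lines, at 7.59 and 8.48 in the T1KO lines and at 7.25 in T2KO#16. WT#92 and T1KO#65 were the high lines for Airn, and the ratio was -0.98 in the pair of WT#92 and -1.24 in that of T1KO#65. A second Airn probe past the filter stood between -0.23 and 0.23 in all 5 pairs.

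Grb10, an adaptor that dampens insulin signalling and is expressed from the maternal copy outside the brain, and its neighbour Ddc, the aromatic amino acid decarboxylase, had ratios of both signs among the 4 pairs. Grb10 stood at 8.19, 8.86, 9.16 and 8.01 in the WT lines, at 8.89, 8.42, 7.53 and 8.0 in the DKO lines, at 9.21 and 9.0 in the T1KO lines and at 9.24 in T2KO#16. Its ratios ran from 0.70 in DKO#51/WT#6 to -1.63 in DKO#60/WT#7. Ddc was at 0.89, 0.24, -0.31 and -0.30, so positive in the male and negative in the female pairs, and its second probe also had its negative values in the female pairs alone, at 0.15, 0.59, -1.19 and -0.87.

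Peg3, Mest and Snrpn, each the lead gene of a paternally expressed cluster with a methylated maternal copy, had lower values in the male DKO lines than in their paired WT lines. Peg3, a zinc-finger protein gene on chromosome 7, stood at 8.70, 8.99, 8.23 and 9.21 in the WT lines, at 7.88, 8.24, 9.02 and 9.42 in the DKO lines, at 7.94 and 9.14 in the T1KO lines and at 9.26 in T2KO#16. Its ratios were -0.82 and -0.75 in the male pairs and 0.79 and 0.20 in the female pairs, which do not overlap. The difference, male minus female, was -1.28 (SE 0.235, limma adjusted p = 0.828). Its second probe moved the same way, at -0.65, -0.55, 0.74 and 0.27. Usp29, which starts within the same window as Peg3 on the opposite strand, stood at 7.04, 7.55, 7.14 and 7.30 in the WT lines, at 7.04, 7.02, 7.24 and 7.24 in the DKO lines, at 7.03 and 7.33 in the T1KO lines and at 7.64 in T2KO#16. Its ratios of 0.00, -0.53, 0.10 and -0.06 had no such split.

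Mest, a gene of the hydrolase fold family on chromosome 6, stood at 12.20, 12.05, 11.80 and 12.73 in the WT lines, at 11.32, 11.06, 12.27 and 12.42 in the DKO lines, at 11.81 and 11.87 in the T1KO lines and at 12.48 in T2KO#16. The male DKO lines were the lowest of the 11. Its ratios were -0.89, -0.99, 0.47 and -0.31, and the difference between the sexes was -1.02 (SE 0.294, limma adjusted p = 0.828), or -0.63 without the pair DKO#60/WT#7. In the other 2 Mest probes too both male pairs lay below both female pairs, at -0.61, -0.78, 0.66 and -0.14 and at -0.59, -0.55, 0.48 and -0.16. Snrpn, which encodes a protein of the spliceosome and heads the cluster of Prader-Willi syndrome genes, stood at 13.16, 13.27, 12.56 and 13.30 in the WT lines, at 12.77, 12.69, 13.65 and 13.50 in the DKO lines, at 12.85 and 12.88 in the T1KO lines and at 13.37 in T2KO#16. Its ratios were -0.39, -0.58, 1.09 and 0.20, a difference between the sexes of -1.14 (SE 0.332, limma adjusted p = 0.828). Of its other probes, one gave -0.27, -0.42, 1.17 and 0.34, and the dimmest one -0.11, 0.92, 0.88 and 0.23. Of the other genes of that cluster, Magel2 was lower in both male pairs (-0.50 and -0.42) than in the female pairs (-0.11 and 0.27), Ndn was at -0.39, 0.15, 0.85 and 0.24, Mkrn3 at -0.57, 0.13, 0.66 and -0.29 and Peg12 at 0.20, 0.28, 1.40 and 0.06. Ube3a, the maternally expressed ubiquitin ligase there, was at -0.15, 0.28, 0.28 and 0.34.

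Across the 46 genes, 0 were called in male minus female DKO over WT (0% of all genes were called), and 6 (13%) had an unadjusted limma p under 0.05, against 5.14% of all genes. The difference was below 0 in 22 of the 26 paternally expressed genes and in 10 of the 19 maternally expressed ones, against 49.1% of all genes. Both male pairs lay below both female pairs in 14 of the 46 (17.9% of all genes) and above them in 6 (19.1% of all genes). The median ratio of the paternally expressed genes was 0.05 in DKO#51/WT#6, -0.45 in DKO#61/WT#92, 0.19 in DKO#60/WT#7 and 0.00 in DKO#59/WT#94, so the lowest and the highest value each came from 1 pair. The median of the 31 feeder fibroblast markers was -0.05, -0.44, 0.81 and 0.01 in the same pairs, and that of 14 primed epiblast genes was -0.51, 0.26, 0.94 and 0.01. The part of the feeder markers in the values of the paternally expressed genes was not tested. Sex and slide cannot be told apart.

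**Figure D2:**
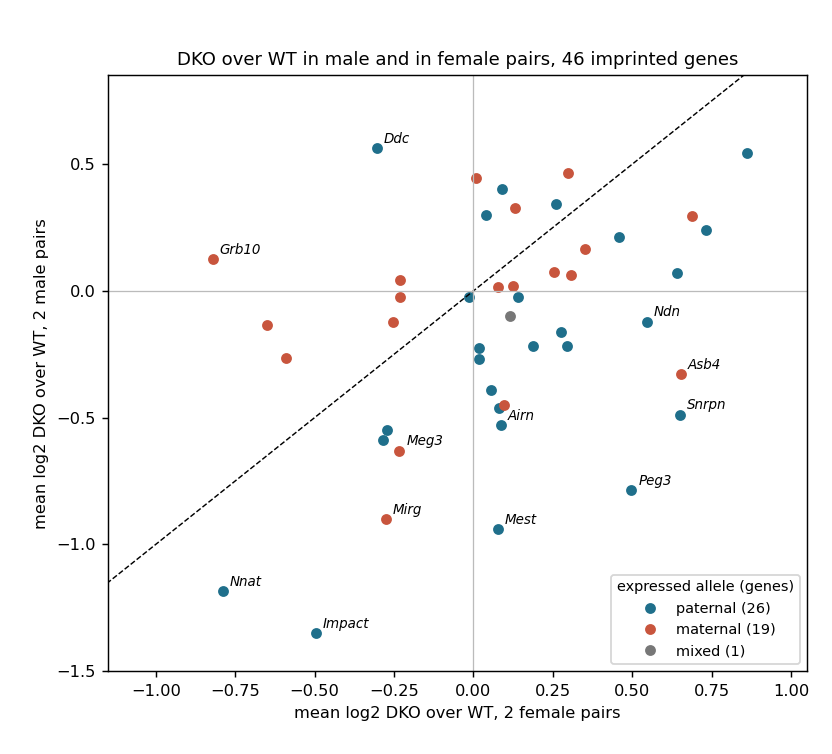
Mean log2 DKO over WT of each imprinted gene in the 2 female pairs (horizontal) and the 2 male pairs (vertical), coloured by expressed copy. The dashed line marks equal values, and 22 of the 26 paternally expressed genes lie below it, Peg3, Snrpn and Mest by more than 1.

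Peg10, a paternally expressed gene derived from a retrotransposon and needed for the placenta, stood at 7.50, 8.71, 7.93 and 7.96 in the WT lines, at 7.76, 8.01, 8.41 and 8.07 in the DKO lines, at 7.87 and 8.09 in the T1KO lines and at 7.80 in T2KO#16. WT#92 was its high line, and the same line was the highest for its neighbour Sgce, at 11.32 against 9.98 to 10.61 in the other WT lines. Of the maternally expressed genes around them, Ppp1r9a stood at 9.86, 10.13, 10.04 and 9.87 in the WT lines, at 9.80, 9.94, 9.79 and 9.61 in the DKO lines, at 10.52 and 10.57 in the T1KO lines and at 10.38 in T2KO#16, with a mean ratio of -0.19 (SE 0.0638, limma adjusted p = 0.149). With median centring it stood at 0.09, or -0.13 relative to the median of all genes. A second, dimmer Ppp1r9a probe had ratios of 0.04, 0.15, 0.003 and -0.21, with a mean of -0.003. Asb4 had 1 pair far from the others, at 1.42 in DKO#59/WT#94, where its 2 repeat arrays differed by 2.21. A second Asb4 probe past the filter stood at -0.05, 0.07, -0.07 and -0.05.

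Impact, a paternally expressed regulator of translation, was abundant in most lines and low in a few. It stood at 14.25, 14.25, 14.26 and 14.66 in the WT lines, at 14.00, 11.81, 14.15 and 13.77 in the DKO lines, at 12.92 and 13.24 in the T1KO lines and at 14.28 in T2KO#16. All 4 DKO lines lay below all 4 WT lines, 3 of them by less than 1. The ratios were -0.26, -2.44, -0.11 and -0.89, with a mean of -0.92 (SE 0.408, limma adjusted p = 0.227), or -0.42 without the pair DKO#61/WT#92. A second, dim Impact probe had ratios of -0.02, -0.17, 0.55 and 0.28, so it was higher in the DKO line of both female pairs, unlike the tested probe. It was not well above background in WT#92 or on any T1KO array.

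Plagl1, a paternally expressed zinc-finger regulator of other imprinted genes, had the widest spread between WT lines. It stood at 9.79, 10.78, 10.79 and 11.74 in the WT lines, at 11.46, 10.20, 11.75 and 12.50 in the DKO lines, at 10.76 and 10.88 in the T1KO lines and at 10.21 in T2KO#16. The groups overlapped, and the ratios were 1.67, -0.58, 0.95 and 0.77, with a mean of 0.70 (SD 0.942, n = 4). A second probe of similar brightness gave 1.35, -0.82, 0.63 and 0.45. A dim probe gave 0.76, 0.66, 0.61 and 0.73 and was called when probes were tested singly (mean 0.69, SE 0.0593, limma adjusted p = 0.0224), but it had 0.61 in T2KO over T1KO as well. It thus read higher in Cy5 in all 5 pairs. In each of them the Cy5 line lacked Tet2 and the Cy3 line had it, so dye and Tet2 loss cannot be told apart. The remaining probe stood at -0.15 to 0.08.

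**Figure D3:**
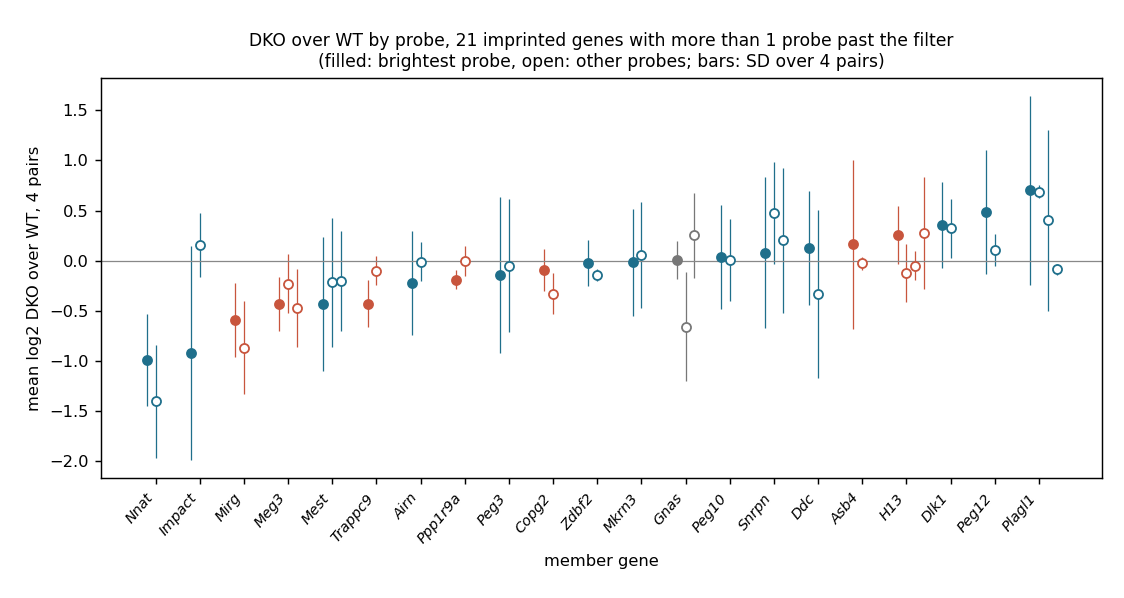
Mean log2 DKO over WT (points) with SD over 4 pairs (bars) for each probe of the 21 imprinted genes that had more than 1 probe past the filter, the brightest probe filled. Both Nnat probes and both Mirg probes lie below 0, whereas the probes of Impact, Gnas and H13 fall on both sides of it.

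Of the 29 further probes past the filter, 21 had the sign of the tested probe of their gene, and the median absolute difference from it was 0.23. Zrsr1, a paternally expressed splicing factor gene, stood at 11.14, 11.39, 11.53 and 11.71 in the WT lines, at 11.37, 11.58, 12.28 and 11.87 in the DKO lines, at 11.98 and 11.68 in the T1KO lines and at 11.27 in T2KO#16. It was higher in the DKO line of each pair, at 0.24, 0.19, 0.76 and 0.16, with a mean of 0.34 (SE 0.12, limma adjusted p = 0.163) that was 0.19 without DKO#60/WT#7. Slc38a4, an amino acid transporter, stood at 11.27, 12.04, 11.26 and 12.18 in the WT lines, at 11.82, 12.30, 11.44 and 12.17 in the DKO lines, at 12.24 and 12.16 in the T1KO lines and at 12.52 in T2KO#16, with a mean ratio of 0.25 (SE 0.102, limma adjusted p = 0.207), or 0.14 without DKO#51/WT#6. Zdbf2 had an SD of 0.22 over the WT lines and of 0.09 over the DKO lines, against medians of 0.16 and 0.16 over all genes. It stood at 8.88, 9.18, 8.74 and 9.20 in the WT lines, at 9.09, 8.92, 8.89 and 9.03 in the DKO lines, at 9.17 and 9.30 in the T1KO lines and at 9.17 in T2KO#16, with a mean ratio of -0.02.

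Gnas encodes the stimulatory G protein subunit, and its locus gives further transcripts from either parental copy. Its tested probe stood at 14.73, 15.28, 14.38 and 14.85 in the WT lines, at 14.75, 15.05, 14.61 and 14.85 in the DKO lines, at 15.04 and 15.21 in the T1KO lines and at 14.27 in T2KO#16, with a mean ratio of 0.01. Its other probes did not follow it: one placed upstream of it (chr2:174122337-174122396) was at -0.80, -1.30, 0.02 and -0.56, and another (chr2:174163501-174163560) at -0.37, 0.31, 0.59 and 0.48. Which transcripts these probes read was not examined. Trappc9, a trafficking gene that hosts the noncoding RNA Peg13 on chromosome 15, stood at 12.05, 12.05, 12.27 and 11.91 in the WT lines, at 11.77, 11.80, 11.52 and 11.48 in the DKO lines, at 12.25 and 12.04 in the T1KO lines and at 12.23 in T2KO#16. All 4 DKO lines lay below all other lines, with ratios of -0.28, -0.25, -0.75 and -0.43 and a mean of -0.43 (SE 0.103, limma adjusted p = 0.0842), although a dimmer Trappc9 probe stood at -0.10. Mcts2, a retrogene within H13, was at 0.16, -1.26, -0.30 and -0.25, and the tested probe of H13 at -0.14, 0.47, 0.48 and 0.22, opposite in sign to Mcts2 in every pair. Of the other H13 probes, one at -0.15, -0.53, 0.07 and 0.11 and one at -0.11, -0.02, -0.21 and 0.13 had the sign of Mcts2 in DKO#61/WT#92. Peg13, Nespas, Inpp5f, Copg2 and Calcr had mean ratios between -0.17 and 0.17 by their tested probes. A second Copg2 probe was negative in every pair, at -0.03, -0.37, -0.49 and -0.43, with a mean of -0.33 (limma adjusted p = 0.114 when probes were tested singly).

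**Figure D4:**
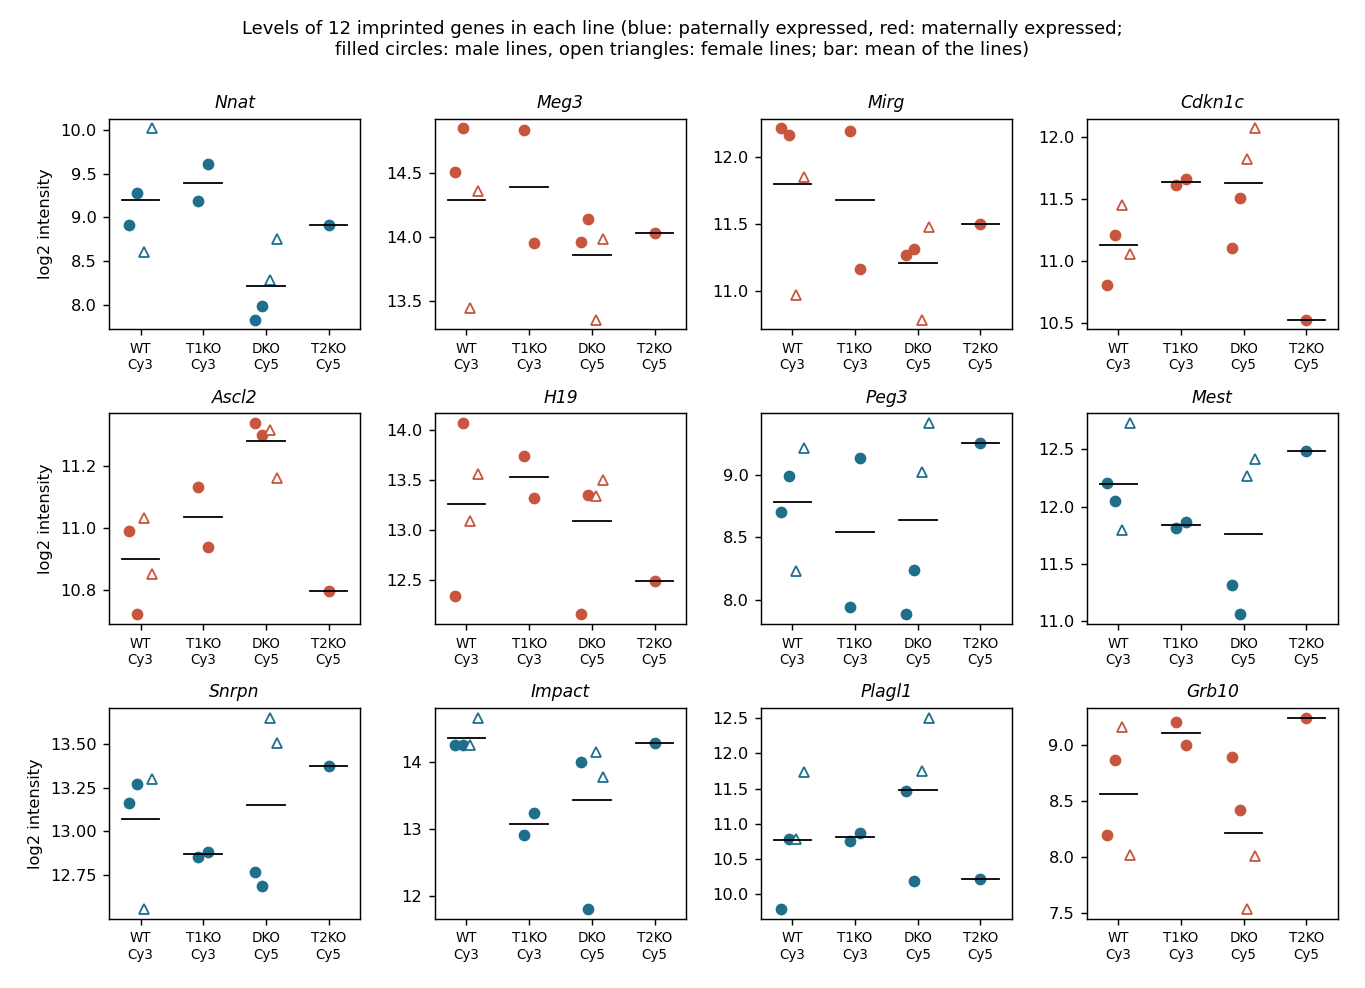
Normalized log2 intensity of 12 imprinted genes in each of the 11 lines (points) and the mean of each genotype (bars), with the dye of each genotype below the axis. The DKO lines of Ascl2 all lie above the WT lines, Impact is low in T1KO#99, T1KO#65 and DKO#61, and Peg3, Mest and Snrpn split the DKO lines by sex.

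Loss of Tet1 alone was read from the Cy3 channel, where T1KO and WT lines carry the same dye on different slides. Impact had the smallest p of the members, 1.17 lower on the log2 scale in the T1KO than in the male WT lines (SE 0.179, limma adjusted p = 0.181), a 2.25-fold difference, and both T1KO lines lay below all 4 WT lines. Ppp1r9a was 0.55 higher (SE 0.135, limma adjusted p = 0.25), and its T1KO levels lay above those of all WT and DKO lines. By its second, dimmer probe the difference was 0.19, and the T1KO lines, at 7.80 and 7.92, lay below DKO#61 at 7.94. Calcr, a maternally expressed receptor, was 0.73 higher (SE 0.197, limma adjusted p = 0.268), Cdkn1c 0.63 higher (SE 0.192, limma adjusted p = 0.298) and Zrsr1 0.57 higher (SE 0.161, limma adjusted p = 0.276). Nnat, Meg3 and Mirg differed from male WT by 0.30, -0.29 and -0.51 with SEs of 0.399 to 0.458. Of the 46, 0 were called (0% of all genes), and 7 (15.2%) had an unadjusted limma p under 0.05, against 13.8% of all genes. The slide and the genotype cannot be told apart here.

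In T2KO over T1KO, a single pair whose spread was taken from the DKO pairs, 0 members were called (0% of all genes), and 7 (15.2%) had an unadjusted limma p under 0.05, against 13.1% of all genes. Gnas was at -0.94 (SE 0.167, limma adjusted p = 0.264), Cdkn1c at -1.13 (SE 0.249, limma adjusted p = 0.273) and H19 at -0.82 (SE 0.242, limma adjusted p = 0.324), all lower in T2KO#16, while Ddc was 1.06 higher (SE 0.252, limma adjusted p = 0.291). Airn stood at -1.24 (SE 0.336, limma adjusted p = 0.313), but at 0.00 with the background model fitted on all spots and at 0.14 in the scanner software's ratios. Impact was 1.04 higher in T2KO#16 than in T1KO#65.

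T2KO#16 and the male DKO lines share the Cy5 dye and the absence of Tet2, and differ in Tet1, in line and in slide. With 1 T2KO line, the spread in this comparison was taken from the DKO lines. Peg3 was 1.20 higher in T2KO#16 (SE 0.246, limma adjusted p = 0.326), Mest 1.29 higher (SE 0.172, limma adjusted p = 0.326), Snrpn 0.65 higher (SE 0.141, limma adjusted p = 0.326), Usp29 0.61 higher (SE 0.125, limma adjusted p = 0.326) and Nnat 1.00 higher (SE 0.234, limma adjusted p = 0.326). For Peg3 and Mest the female DKO lines lay near T2KO#16, between 9.02 and 9.42 and between 12.27 and 12.42. Of the 46, 0 were called (0.00484% of all genes, which is 1 gene), and 14 (30.4%) had an unadjusted limma p under 0.05, against 12.8% of all genes. The 14 include Kcnq1, at -0.51, which passed the filter through the DKO lines alone. It was not well above background on either T2KO array, so its place among the 14 is no support for a difference. This comparison and T2KO over T1KO share the line T2KO#16.

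The WT lines themselves differed in these genes. Female minus male WT gave 0 calls among the 46 (0.431% of all genes were called) and 0 members with an unadjusted limma p under 0.05 (9.67% of all genes). The SD over the 4 WT lines was above the upper quartile of all genes in 23 of the 46 members (50%, against 25% of all genes by construction), and its median was 0.25, against 0.16 over all genes. In the DKO lines 29 of 46 (63.0%) lay above the quartile for DKO lines (25% of all genes by construction), with a median SD of 0.29 against 0.16. Of the paternally expressed genes 15 of 26 in the WT lines and 20 of 26 in the DKO lines were above the quartile, beside 7 and 9 of 19 maternally expressed genes, a difference that was not tested. Plagl1 (SD 0.80), H19 (0.74), Nnat (0.61), Meg3 (0.60), Mirg (0.58) and Airn (0.56) had the largest SDs over WT lines, and Impact (1.09) the largest over DKO lines, while Igf2r (0.05 and 0.08) was among the smallest in both. The median level of the members in WT lines was 10.28, against 9.45 over all genes. The 4 WT lines also differed in sex and slide, and in the summed level of the feeder markers (18.01, 18.74, 17.94 and 18.46). Whether these, culture, clone or genetic background lie behind this spread was not tested.

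**Figure D5:**
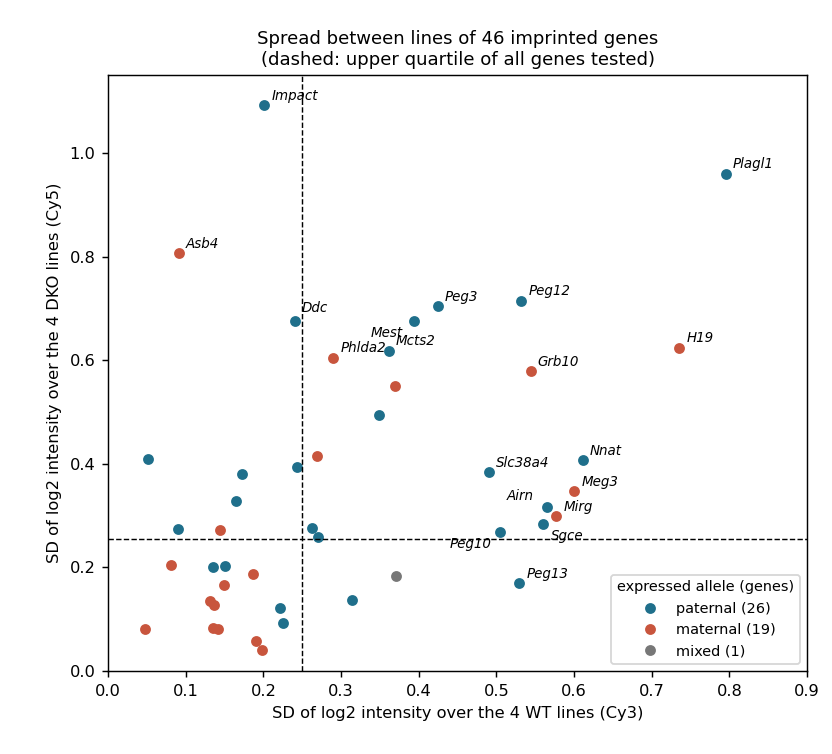
SD of the log2 intensity of each imprinted gene over the 4 WT lines (horizontal) and the 4 DKO lines (vertical), with dashed lines at the upper quartiles of all genes tested. Plagl1 and H19 lie far out on both axes, Impact and Asb4 on the DKO axis alone. The value of Asb4 rests on DKO#59, where the ratios of the 2 repeat arrays differed by 2.21.

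Of 31 genes for methylation and for the upkeep of imprints, all tested, 1 rose and 3 fell in DKO over WT, where 4.58% of all genes were called, and 2 of the falls were those of the deleted genes. The falls were those of Tet1, Tet2 and Uhrf1, at -0.40 (SE 0.0537, limma adjusted p = 0.0295), and the rise was that of Ehmt1, a histone H3 methyltransferase, at 0.52 (SE 0.0569, limma adjusted p = 0.0217). Dnmt1 was at -0.21, Trim28, the corepressor that Zfp57 recruits, at -0.14, Zfp57 at 0.09 and Dppa3, which protects imprints in the zygote, at -0.69 (SE 0.288, limma adjusted p = 0.206). The list's median was -0.04. Of 30 further imprinted genes outside the 51, 26 were tested and 2 rose, beside the 594 of 20663 genes called higher, namely Blcap and Th, the latter encoding tyrosine hydroxylase, at 0.36 (SE 0.0554, limma adjusted p = 0.0396). None of the 26 fell, and their median was 0.15. For Ehmt1, Uhrf1 and Th, as for Blcap, the 5 lines read in Cy5 did not overlap the 6 read in Cy3, with T2KO#16 on the side of the DKO lines and both T1KO lines on the side of the WT lines. The same limit holds for these genes.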

How the data were processed

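Mouse ES cell RNA was measured on 10 two-colour arrays on 3 slides. The deposited scanner files hold the mean spot intensity and the local background intensity of each channel from Agilent Feature Extraction 10.1.1.1, not normalized, per the file headers, with a log10 ratio of Cy5 over Cy3 that the software had corrected and dye-normalized. The authors' deposited value table followed the direction of Cy5 over Cy3, close to log2 in scale (r = 0.925 to 0.971 and slope 2.77 to 2.94 against the log10 ratios of the same arrays, over probes with a mean level above 9). Its column medians were 0.00178, 0.00341, 0.00544, 0.00499, 0.00321, 0.00752, 0.00669, 0.00565, 0.00212 and 0.00685. The sources used here do not say how it was normalized or centred.

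From the intensities, background was corrected with normexp (offset 50), ratios were normalized by loess and channels by Aquantile, in limma 3.58.1 on R 4.3.3 (data.table package 1.17.8, jsonlite 2.0.0; Python 3.11.15, numpy 2.4.6 and matplotlib 3.10.9). The 71 to 122 gene spots per array below their local background were left out, a choice first made after values of these arrays had been seen; outlier spots (173 to 337 per array) and control spots were left out too. Tests covered probes that rose well above background on every array of some group (a genotype in one sex). RefSeq named 26581 probes. The brightest probe stood for a gene, a choice that depends in part on the unused channel of the T1KO#99 arrays. Repeat arrays of a pair were averaged. Tests were limma's moderated tests (lmFit, eBayes, two-sided, Benjamini-Hochberg over all genes at 0.05), with the pair of lines, or the line, as replicate. Whether lines came from separate animals is not given, so p-values measure the spread between lines.

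Values in every line are given for the 10 members with the smallest p in DKO over WT, the 6 with the largest SD over WT lines and 21 representatives of clusters. The members and lists were chosen with earlier results of these data known. Promoter sequences and names are RefSeq's for GRCm38.p6, whose windows were in the orientation of the gene (1627 of 1627 overlapping windows of opposite strands were reverse complements).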

Additional observations from a re-analysis of the deposited data

Results flagged for a closer look

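In 16 of 138 groups of 4 lines or 4 pairs, 1 value stood apart from the other 3 by Dixon's criterion (gap over range above its critical value). Chance gives this in about 1 of 20 groups of independent, normally distributed values. The groups of a gene were not independent, since its ratios and levels share values. The criterion was applied to the members alone, so whether they differ from all genes in this was not tested. In the pair DKO#60/WT#7 the ratio of Cd81 was -0.42 (others -0.04 to 0.00), that of Kcnq1 -0.13 (others 0.32 to 0.39), that of Kcnq1ot1 0.010 (others -0.60 to -0.58), that of Peg12 1.40 (others 0.06 to 0.28) and that of Zrsr1 0.76 (others 0.16 to 0.24). In the pair DKO#59/WT#94 the ratio of Asb4 was 1.42 and that of Cdkn1c 1.01. In DKO#61/WT#92 the ratio of Igf2 was -0.24, and in DKO#51/WT#6 that of Ube3a was -0.15. Among levels of DKO lines, Asb4 stood at 8.42 and Inpp5f at 7.20 in DKO#59, H19 at 12.16 in DKO#51 and Impact at 11.81 in DKO#61. Among levels of WT lines, Impact stood at 14.66 in WT#94, Nespas at 7.14 in WT#6 and Peg13 at 7.58 in WT#7.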

How the results depend on the processing

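No paired analysis was possible because the replicate numbers in the labels mark repeat arrays of the same lines; the pairs of lines that shared an array are the replicates of DKO over WT itself. In DKO over WT the 0 called members became 13 with median centring, 1 without the filter on dim probes (Nnat), 1 with the mean of the probes of a gene (Nnat), 5 with every array entered and line pairs as random blocks (Ascl2, Meg3, Mirg, Nnat and Trappc9) and 2 with every probe tested on its own. The cause was not tested. Leaving out 1 pair or line gave 0 called members in each of the 6 comparisons, and the other alternatives gave 0 as well. With median centring, under which all genes had a median of 0.22, Meg3 stood at 0.054 and Ppp1r9a at 0.086, and T2KO over T1KO of Airn was 0.0022 with normexp on all spots and 0.14 in the software's ratios. The maternally expressed genes' median of 0.05 was -0.03 with normexp on all spots, 0.24 with median centring and -0.06 to -0.02 without DKO#59/WT#94 or DKO#51/WT#6. Over all genes, limma called 594 higher and 353 lower, 6952 and 585 with median centring, 203 and 161 with normexp on all spots, 516 and 166 with the software's ratios, 761 and 701 with the random block, and 0 without any 1 pair, with sex as a covariate or with an intensity trend. Without the filter on dim probes 677 and 474 of 31660 genes were called, and 504 and 304 of 20663 with the mean of the probes. With every probe tested on its own, 1035 of 25865 probes were called. With 4 pairs, and genes near background such as Kcnq1ot1 and Igf2, small differences were not detectable.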
